A study of Mus musculus with 34 samples.

Results

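The genes described here are 40 named genes of DNA replication and mitosis, followed in the mouse cornea from embryo to old age. They came from a list of symbols that was drawn up with earlier results of these data known, and the rule that matched probe sets to it used no difference between ages. A gene was represented by the probe set that carried exactly 1 gene symbol equal to its name, and by the one with the highest mean over the whole-cornea arrays where there were several. The rule found 39 of the 40, of which 17 act in DNA replication and 22 in mitosis, among 19938 gene symbols in all. Ccnb1 (cyclin B1) was not matched and was not analysed here. A filter on low intensities kept 12998 genes, and all 39 passed it, although Cdt1 lay above the array median on only 2 arrays, Cdc6 on 4 and Pole on 5. Each of these genes had its highest reading on an E14.5 array and may have passed the filter through that age. Their differences from E14.5 are therefore not independent of the filter. Pcna and Top2a had a second probe set. The second one of Pcna gave nearly the same age means, 4896 against 5003 at E14.5 and 2276 against 2308 at E15.5. That of Top2a stayed between 89.9 and 205.4 at every age and was not used.

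RNA was measured on Affymetrix arrays in dissected whole corneas of wild-type CB6 mice, with no treatment listed, at 12 ages. The ages were embryonic days 14.5, 15.5 and 17.5 (E14.5, E15.5, E17.5), postnatal days 3, 7, 14 and 28 (P3 to P28), 2 months, 6 months, 1 year, 18 months and 2 years. Each age up to 2 months had 3 arrays and each later age had 2, which limits the precision. One further array held epithelium of P28 lifted off with dispase, and 1 held stroma of P7 cut from sections by laser capture. The design text speaks of a single time point for the layers, and the ages used here are those of the sample labels. Nothing in the labels ties an array to an animal or says how many corneas it holds, so p-values here measure only the spread between these arrays, which may be technical. In whole corneas, fewer dividing cells and less of these RNAs per cell cannot be told apart.

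A cell copies its genome in S phase and divides the copies in mitosis. Before S phase the licensing factors Cdc6 and Cdt1 load the Mcm helicase onto origins. Gins subunits then complete the active helicase, primase and the polymerases copy the strands around the sliding clamp Pcna, and ribonucleotide reductase and thymidylate synthase supply the nucleotides. In mitosis, cyclin-dependent and Aurora kinases, kinetochore proteins and spindle motors part the chromosomes under the control of the checkpoint kinases. Anillin, Ect2 and the midzone proteins then close the cell. Promoters of S-phase genes often carry sites for E2F factors. Those of mitotic genes often carry a cell cycle homology region (CHR) beside CCAAT boxes, the binding sites of the nuclear factor NF-Y. In the adult cornea, division is known mainly from the basal and limbal epithelium.

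Promoters of these genes are shown first, and the replication and mitosis genes differ in these motifs. Whether the motifs bear on the RNA levels described below was not tested. The sequences are the 250 bases before the start site in RefSeq's annotation of GRCm38.p6, read 5′ to 3′ on the strand of the gene. Capitals mark matches on either strand. A CHR was spelled TTTGAA or alternatively TTCGAA, and a CCAAT box by the letters of its name. An E2F match was spelled TTCCCGC in one form, and the other forms searched were TTCGCGC, the form TTGGCGC, and lastly TTGCCGC. Matches that overlap form one longer run of capitals. Cdc20 (chr4:118437344-118437593, minus strand), Top2a (chr11:99024190-99024439, minus strand) and Cdk1 (chr10:69352913-69353162, minus strand) stand for the mitosis genes. Mcm5 (chr8:75109259-75109508, plus strand), Mcm6 (chr1:128359706-128359955, minus strand) and Pola1 (chrX:93632156-93632405, minus strand) stand for the replication genes.
Cdc20: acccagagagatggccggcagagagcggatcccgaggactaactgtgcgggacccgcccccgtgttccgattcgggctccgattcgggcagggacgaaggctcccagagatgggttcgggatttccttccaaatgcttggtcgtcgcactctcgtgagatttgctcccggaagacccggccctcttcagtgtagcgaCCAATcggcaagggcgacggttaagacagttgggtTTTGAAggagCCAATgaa
Top2a: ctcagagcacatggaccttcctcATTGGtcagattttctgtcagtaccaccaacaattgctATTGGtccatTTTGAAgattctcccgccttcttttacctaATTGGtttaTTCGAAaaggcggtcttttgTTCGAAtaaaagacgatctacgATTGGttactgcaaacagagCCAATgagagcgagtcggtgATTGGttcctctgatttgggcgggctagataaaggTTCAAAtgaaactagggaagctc
Cdk1: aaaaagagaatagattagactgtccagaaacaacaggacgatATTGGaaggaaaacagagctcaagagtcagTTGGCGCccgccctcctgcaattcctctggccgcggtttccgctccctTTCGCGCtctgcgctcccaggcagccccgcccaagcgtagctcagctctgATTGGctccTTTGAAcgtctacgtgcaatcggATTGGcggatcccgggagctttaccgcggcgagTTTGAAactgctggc
Mcm5: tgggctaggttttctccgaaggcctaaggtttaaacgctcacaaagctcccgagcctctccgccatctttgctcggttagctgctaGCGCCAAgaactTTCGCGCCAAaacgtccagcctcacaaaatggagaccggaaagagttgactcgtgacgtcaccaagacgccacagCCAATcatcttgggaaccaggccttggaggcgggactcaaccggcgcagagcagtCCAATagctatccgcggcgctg
Mcm6: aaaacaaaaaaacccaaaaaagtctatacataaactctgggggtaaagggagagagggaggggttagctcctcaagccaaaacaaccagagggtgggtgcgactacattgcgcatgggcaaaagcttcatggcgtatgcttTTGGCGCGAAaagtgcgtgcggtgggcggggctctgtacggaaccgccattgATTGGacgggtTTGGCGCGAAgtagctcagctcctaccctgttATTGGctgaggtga
Pola1: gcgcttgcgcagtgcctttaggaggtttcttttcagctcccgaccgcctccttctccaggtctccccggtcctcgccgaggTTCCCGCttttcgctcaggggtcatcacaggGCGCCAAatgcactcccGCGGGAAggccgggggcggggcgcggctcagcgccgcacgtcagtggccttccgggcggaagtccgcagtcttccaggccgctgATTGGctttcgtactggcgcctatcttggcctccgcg

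The Cdc20 stretch holds a CHR with a CCAAT box on each side, and Top2a has a cluster of both. Cdk1 carries E2F matches as well. Mcm5, Mcm6 and Pola1 have E2F matches and CCAAT boxes with no CHR in these letters. Sequences were found for 31 of the 39 genes, 13 for replication and 18 for mitosis, each of 300 bases (250 before and 50 after the start). A CHR stood in 16 of the 18 mitosis promoters and in 2 of the 13 replication promoters, against 16.8% of the 10343 tested genes with a sequence. The 2 replication genes were Mcm2 and Mcm7. The 2 mitosis genes without a CHR were Cenpe and Nusap1. An E2F match stood in 10 of the 13 replication genes and in 3 of the 18 mitosis genes (Cdk1, Ect2 and Mki67), against 18.0% of tested genes. Mcm2, Pcna and Tyms were the replication genes without one. A CCAAT box was present in 10 and 16 genes, against 42.1%. A CHR together with a CCAAT box was present in 2 and 15, against 6.85%. A match describes letters, not a bound site, and a missing match says only that these letters are not in this window.

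**Figure D1:**
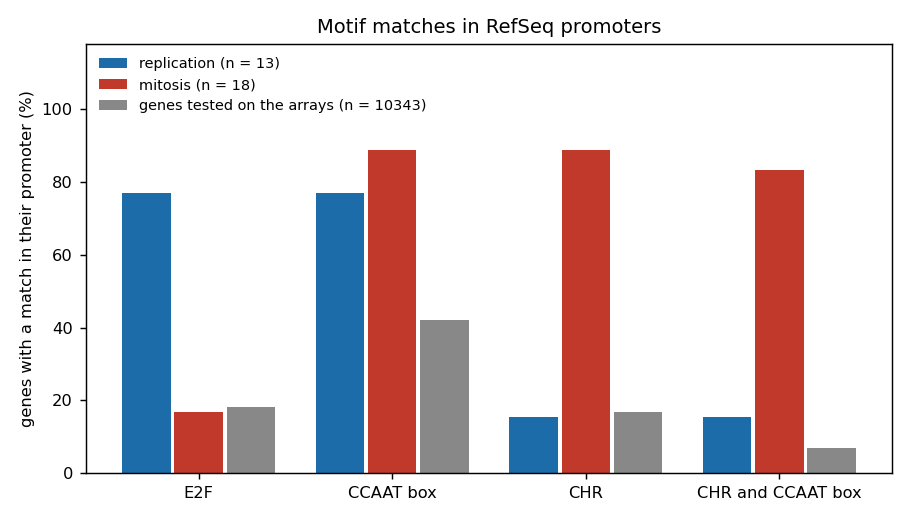
Share of genes (vertical axis, percent, from 0) whose RefSeq promoter of 300 bases holds each motif on either strand, for 13 replication genes, 18 mitosis genes and 10343 genes tested on the arrays. E2F matches are most frequent in the replication genes (76.9%) and CHR matches in the mitosis genes (88.9%).

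The arrays were checked before the genes were compared. Corneal markers stood apart at E14.5: 14 corneal epithelial markers summed to 2719 to 8498 there and to 34443 to 53626 at E15.5, and 11 stromal markers to 2852 to 12103 and 56926 to 65368. Krt12, the defining keratin of corneal epithelium, averaged 55.5 at E14.5 and 7495 at E15.5. RNA of other tissues was also present. Lens markers (14 genes) summed to 96334 and 84824 on E14.5 replicates 2 and 3, 6307 on E14.5 replicate 1 and 2479 to 2642 at E15.5, and were high on P14 replicate 2 (43863), 2 months replicate 1 (60628) and 6 months replicate 2 (50254). Red blood cell markers (6 genes) summed to 23279 to 33806 at E14.5 and 937 to 1568 at E15.5. Retinal markers (9 genes) summed to 1630 to 7934 and 799 to 1593 at these ages. Skeletal muscle markers (10 genes) reached 48099 and 40541 on E17.5 replicates 1 and 3. In addition, 8 probe sets with no gene symbol read at least 1501 on all 18 arrays from E14.5 to P14. They read at most 12.8 on all 14 arrays from P28 on. Any comparison of ages up to P14 with later ages, such as P28 against P14, coincides with that split and cannot be told apart from it.

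Over the 12 ages the set of genes was highest at E14.5 and dropped at E15.5, and most genes lay between these levels afterwards. A gene was called when limma's test gave an adjusted p under 0.05 (Benjamini-Hochberg over all 12998 genes) and the log2 difference was at least 1, on log2(intensity + 16). Over the 12 ages (limma's moderated F-test, range of age means of at least 1) 35 of the 39 were called, 14 of 17 for replication and 21 of 22 for mitosis, against 40.6% of all genes. Mcm2, Gins2, Cdt1 and Kif20a had an adjusted p under the threshold with a range under 1. The age means spanned 0.72 to 2.44 on the log2 scale, from Cdt1 to Bub1. E14.5 was the highest age for 34 genes and E15.5 the lowest for 29. The exceptions at the top were Pcna, Rrm1 and Prim1 with 18 months, Kif23 with P28 and Anln with P14. At the bottom, Bub1, Bub1b, Plk1, Aurka, Cenpe and Tpx2 had 2 months as the lowest age. Mcm2 and Mcm4 had 6 months, Cdt1 had P28 and Kif20a had 2 years. Within E14.5 to P14, 35 of 39 were called (19.6% of all genes). Within P28 to 2 years, 2 were called, Ccnb2 and Cenpe (6.77% of all genes), with 5 without 2 years replicate 1 and 1 without 2 months replicate 3.

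**Figure D2:**
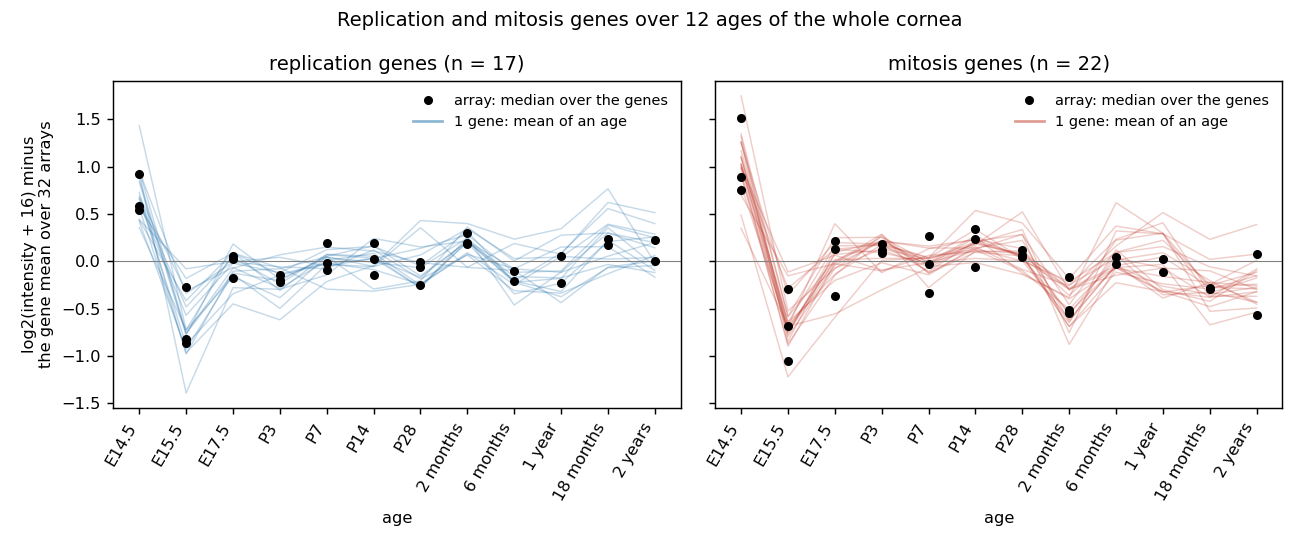
Gene-centred log2(intensity + 16) at the 12 ages (horizontal axis) for 17 replication genes and 22 mitosis genes. Each line joins the age means of 1 gene and each black point is the median over the genes on 1 array. Both sets peak at E14.5 and drop at E15.5, and at 2 months and 18 months the replication points lie above 0 and the mitosis points below it.

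Of the 11 steps between neighbouring ages, the one from E14.5 to E15.5 held the most called genes of the set. At E15.5 against E14.5, 35 of 39 genes fell, 14 of 17 for replication and 21 of 22 for mitosis, where 3.1% of all genes fell. The other 4 (Mcm2 at -0.75, Gins2 at -0.85, Cdt1 at -0.52 and Kif20a at -0.85) had negative differences under the size limit. The median difference was -1.35 for replication and -1.76 for mitosis, beside 0.01 for all genes. Every one of the 39 had all 3 E15.5 arrays below all 3 E14.5 arrays, as had 22% of all genes. Without the lens-rich arrays, which leaves E14.5 replicate 1 alone in its group with a spread assumed like that of the other ages, 30 genes were called and the median over the 39 was -1.42. The corneal, lens and blood markers given above changed across the same step, and apart from the lens-rich arrays their part in the result was not tested.

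Nucleotide supply held the largest fall. Rrm2, the S-phase subunit of ribonucleotide reductase, read 1034, 1233 and 1829 at E14.5 and 309.7, 170.2 and 298.9 at E15.5. The E15.5 arrays lay far below the E14.5 arrays, at 19.0% of their mean. Its log2 difference was -2.33 ± 0.21 (SE of the fit, 3 arrays each, limma adjusted p = 1.1e-08). Tyms, thymidylate synthase, read 1692, 1619 and 1966 and then 658.0, 352.4 and 608.9 (-1.72 ± 0.16, adjusted p = 1.4e-08). Rrm1, the large reductase subunit, read 892, 896 and 1421 and then 548.0, 291.5 and 400.0 (-1.35 ± 0.24, adjusted p = 1.1e-04).

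Among the licensing and helicase genes 7 of 10 fell. Gins1, a subunit of the GINS complex of the active helicase, read 602.5, 627.8 and 1350.1 at E14.5 and 212.8, 150.7 and 144.9 at E15.5 (-2.16 ± 0.26, adjusted p = 7.7e-07). Replicate 3 of E14.5 was well above the other E14.5 arrays, and the ages did not overlap. Cdc6, a licensing ATPase, read 312.0, 268.0 and 359.2 and then 147.1, 53.8 and 72.0 (-1.71 ± 0.22, adjusted p = 2.2e-06). Mcm6, a helicase subunit, read 1289, 1389 and 2069 and then 749.5, 433.7 and 369.2 (-1.62 ± 0.23, adjusted p = 7.7e-06). The 6 Mcm subunits form one ring, and their differences ran from -0.75 for Mcm2 to -1.62 for Mcm6, with Mcm7 at -1.30, Mcm5 at -1.19, Mcm3 at -1.14 and Mcm4 just past the size limit. Cdt1, the loader that works with Cdc6, was least changed, with 256.5, 265.8 and 274.5 at E14.5 and 197.6, 181.4 and 163.1 at E15.5.

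All 4 genes of synthesis at the fork fell. Pola1, the catalytic subunit of the polymerase that extends primers, read 1057, 1113 and 1210 and then 521.9, 255.5 and 389.7 (-1.55 ± 0.18, adjusted p = 6.3e-07). Pole, of the leading-strand polymerase, and Prim1, of primase, had differences of -1.63 ± 0.22 and -1.53 ± 0.26. Pcna, the sliding clamp, read 4095, 4192 and 6723 and then 2647, 2246 and 2030 (-1.08 ± 0.16, adjusted p = 1.5e-05). The difference of Pcna dropped under the size limit without E14.5 replicate 3 (-0.85), without E15.5 replicate 3 (-0.99) and without the lens-rich arrays (-0.83). Mcm3 was likewise not called without E14.5 replicate 3 (-0.94), nor Mcm4 without E14.5 replicate 2 or E15.5 replicate 2 or 3 (-0.98, -0.93 and -0.99). Without the lens-rich arrays Mcm3 (-0.91) and Mcm4 (-0.95) were not called either.

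All 7 genes of the cyclins, mitotic kinases and Cdc20 fell. Cdk1, the kinase that drives entry into mitosis, read 1206, 1336 and 2227 at E14.5 and 571.5, 258.8 and 466.3 at E15.5 (-1.86 ± 0.30, adjusted p = 3.2e-05). Its partner Ccnb2, cyclin B2, read 1216, 1899 and 1918 and then 570.8, 287.3 and 503.4 (-1.88 ± 0.22, adjusted p = 6.7e-07). Ccna2, cyclin A2, had a difference of -1.76 ± 0.22. Cdc20, which activates the anaphase-promoting complex, read 799.8, 744.5 and 1196.3 and then 305.8, 230.4 and 241.0 (-1.74 ± 0.19, adjusted p = 1.7e-07). Aurkb, the kinase of the chromosomal passenger complex, fell by 1.76, Aurka, the spindle pole kinase, by 1.27 and Plk1, the polo kinase, by 1.11 on the log2 scale. Plk1 was not called without E14.5 replicate 3 (-0.83) or E15.5 replicate 2 (-0.97), and without the lens-rich arrays it was at -0.68 with a limma adjusted p of 0.15.

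Checkpoint and kinetochore genes fell in 5 of 5. Bub1, a checkpoint kinase at the kinetochore, read 856.0, 1178.0 and 1753.8 and then 349.4, 158.4 and 240.5, which is 19.8% of the E14.5 mean (-2.27 ± 0.34, adjusted p = 1.3e-05). Ttk, the kinase that starts checkpoint signalling, read 684.6, 715.7 and 1000.2 and then 201.9, 102.6 and 237.9 (-2.10 ± 0.26, adjusted p = 9.9e-07). Bub1b, a part of the checkpoint complex, Cenpf, a kinetochore protein, and Cenpe, a kinetochore motor, had differences of -1.93, -1.70 and -1.60. On each of these genes the E15.5 arrays lay below the E14.5 arrays, with replicate 2 the lowest E15.5 array.

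Of the 8 spindle and cytokinesis genes, 7 fell. Kif11, the motor that pushes spindle poles apart, read 1149, 1233 and 1786 and then 441.5, 224.6 and 290.2 (-2.09 ± 0.25, adjusted p = 8.0e-07). Anln, anillin of the cleavage furrow, read 846.6, 903.7 and 887.6 and then 383.7, 182.0 and 243.5 (-1.71 ± 0.23, adjusted p = 3.4e-06). Tpx2, which targets Aurka to the spindle, and Ect2, the exchange factor that starts furrowing, had differences of -1.84 and -1.82. Nusap1, a spindle microtubule protein, Prc1, which bundles the midzone, and Kif23, a midzone motor, had -1.66, -1.51 and -1.03. Kif23 was not called without E14.5 replicate 3 (-0.95) or E15.5 replicate 1 or 2 (-0.98 and -0.97), nor without the lens-rich arrays (-0.85). Both chromosome genes fell as well: Top2a, the topoisomerase that untangles sister chromatids, read 2172, 2199 and 4242 and then 1142, 523.9 and 731.3 (-1.82 ± 0.29, adjusted p = 2.8e-05), and Mki67, the coat protein of mitotic chromosomes, had -1.78 ± 0.22.

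**Figure D3:**
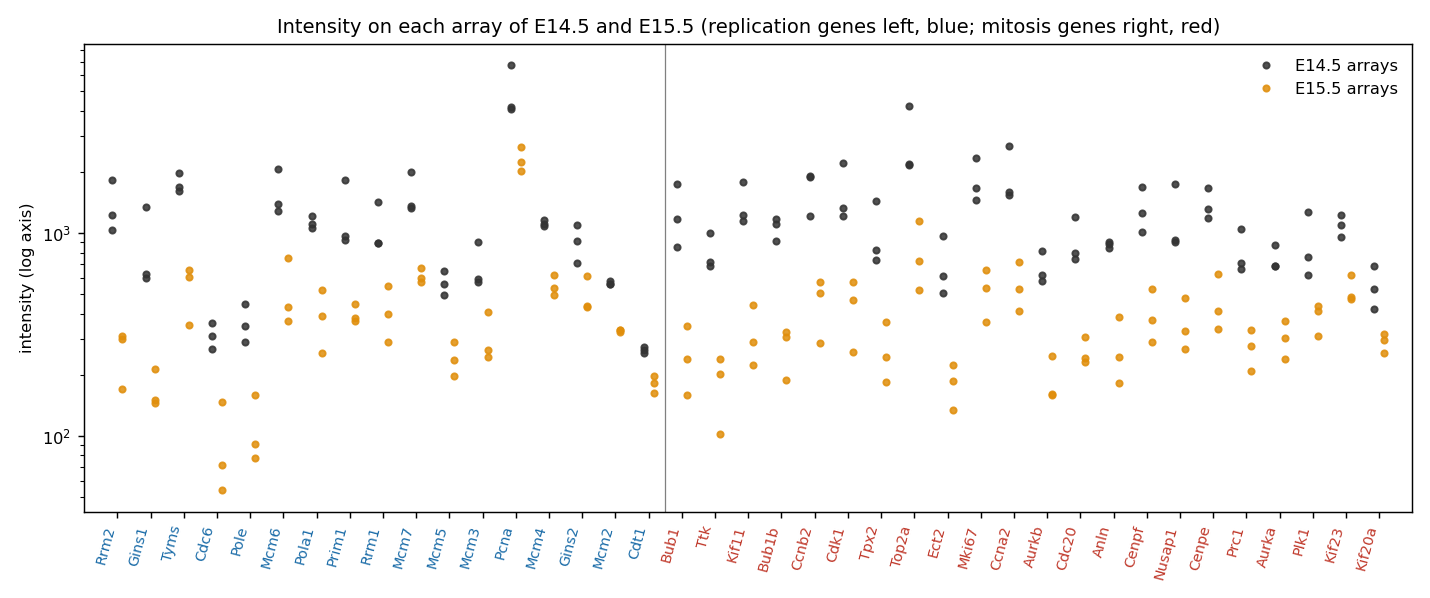
Intensity (log axis) of each of the 39 genes on the 3 arrays of E14.5 (dark) and the 3 arrays of E15.5 (orange), with replication genes left and mitosis genes right, ordered within each by log2 difference. In every gene all E15.5 points lie below all E14.5 points. Levels of different genes come from different probe sets and are not comparable.

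After E15.5 the levels returned part of the way. At E17.5 against E15.5 all 39 differences were positive, with medians of 0.55 for replication and 0.70 for mitosis, beside -0.06 for all genes. Only Rrm2 rose by the test (0.392% of all genes rose), with 586.1, 535.3 and 567.4 at E17.5 (1.11 ± 0.21, adjusted p = 0.0145). That call was lost without E15.5 replicate 2 or 3 or E17.5 replicate 3, while 11 genes rose without E15.5 replicate 1, 7 without E17.5 replicate 2 and 2 without E14.5 replicate 3. In 10 replication and 8 mitosis genes all E17.5 arrays lay above all E15.5 arrays (5.23% of all genes). Muscle markers were high on E17.5 replicates 1 and 3. Pigment cell markers (6 genes) summed to 1087 to 8003 at E15.5 and 7541 to 13865 at E17.5, vessel markers (8 genes) to 1853 to 3553 and 2729 to 6267, and retinal markers to 799 to 1593 and 1863 to 3770. The part of these tissues in the result was not tested.

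By P14 the difference from E15.5 was larger. At P14 against E15.5 all 39 differences were positive, with medians of 0.69 and 0.88, and 5 genes rose where 3.21% of all genes did: Anln, Rrm2, Kif11, Ccnb2 and Mki67. Anln read 973.6, 784.7 and 983.4 at P14, as high as at E14.5, with 1.76 ± 0.23 against E15.5 (adjusted p = 7.5e-06). Rrm2 read 951.1, 740.9 and 764.0 (1.63 ± 0.21, adjusted p = 6.6e-06). Kif11, Ccnb2 and Mki67 had 1.11, 1.09 and 1.00, close to the size limit. The count moved with single arrays: 18 genes without E15.5 replicate 1, 2 without E15.5 replicate 2, 3 without P14 replicate 1 and 13 without P14 replicate 2, which was rich in lens markers. All P14 arrays lay above all E15.5 arrays in 28 of the 39 genes, against 13.8% of all genes. Corneal epithelial markers summed to 63491 to 80231 at P14 and stromal markers to 38281 to 55753, higher and lower than at E15.5, and their part was not tested.

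Single steps between E17.5 and P28 held no called gene of the set. At P3 against E17.5 (1.89% of all genes called), P7 against P3 (1.98%), P14 against P7 (0%) and P28 against P14 (7.65%), limma called 0 of 39, with 3, 3, 1 and 2 genes at an unadjusted p under 0.05. The widest differences in these steps were 0.60 and -0.57. The signs of replication and mitosis genes also parted here. At P3 against E17.5, 13 of 17 replication genes were lower (median -0.156) and 17 of 22 mitosis genes higher (median 0.155). At P7 against P3, 14 of 17 replication genes were higher (median 0.229) and 17 of 22 mitosis genes lower (median -0.134). At P14 against P7, all 22 mitosis genes and 8 of 17 replication genes were higher. Prim1 had the widest difference of P28 against P14 and Anln reached its highest mean at P14. Kif23, the midzone motor, was at 985.2, 894.2 and 998.5 at P14 and 1219, 1242 and 1212 at P28, its highest age, with no overlap between the ages (33.3% of all genes lay higher without overlap) and a difference of 0.35 ± 0.19 (limma adjusted p = 0.176).

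Replication and mitosis genes also parted at some adult ages. At 2 months the replication genes stood at a median of 71.5% of their E14.5 means and the mitosis genes at 34.0%, whereas at E15.5 the medians had been 38.6% and 28.5%, and at 6 months 54.1% and 47.4%. Against E14.5, 19 of 22 mitosis genes and 2 of 17 replication genes (Gins1 and Tyms) fell at 2 months, where 6.02% of all genes fell, with medians of -1.50 and -0.48. The count of 21 was 16 to 22 with each array left out in turn and 18 without the lens-rich arrays. Both replication calls ended without E14.5 replicate 3 (Gins1 at -0.99 and Tyms at -0.94), and that of Tyms also without 2 months replicate 2 (-0.96). Bub1 read 259.0, 196.7 and 182.7 at 2 months, 16.9% of its E14.5 mean and the lowest share of any gene in the set at this age. Pcna read 4948, 4471 and 5074, 96.6% of its E14.5 mean. Corneal epithelial markers summed to 2719 to 8498 at E14.5 and 73969 to 82098 at 2 months. Red blood cell markers summed to 23279 to 33806 and 818 to 863. These ages also lie on either side of the split of the unnamed probe sets. The part of tissue composition and of this split in the result was not tested.

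At 2 months against P28 the signs differed between replication and mitosis genes. All 22 mitosis genes were lower (median -0.58; 21 of 22 with quantile normalization) and 14 of 17 replication genes higher (median 0.32; 16 of 17 with quantile normalization or centred arrays), while the median of all genes was -0.08. By limma 2 genes fell, both mitotic (1.5% of all genes fell), and 0 of the replication genes were called in either direction (2.12% of all genes), with 7 of 17 at an unadjusted p under 0.05. Without 2 months replicate 3, Cenpe alone was called. Cenpe, the kinetochore motor, read 745.4, 706.6 and 644.8 at P28 and 377.2, 286.8 and 256.3 at 2 months, with a wide gap (-1.16 ± 0.22, adjusted p = 0.00109). Ccnb2 read 1085, 1154 and 915.6 and then 655.4, 438.4 and 391.8 (-1.09 ± 0.22, adjusted p = 0.00202). Kif23, Aurka, Ttk, Tpx2, Cenpf and Bub1b had differences of -0.83, -0.62, -0.85, -0.75, -0.74 and -0.72, all with an adjusted p under the threshold and none reaching the size limit. In 14 mitosis genes all 2-month arrays lay below all P28 arrays, against 28.9% of all genes. Corneal epithelial markers summed to 97282 to 102673 at P28 and 73969 to 82098 at 2 months, and stromal markers to 19096 to 21337 and 17865 to 23759. The part of these cell types in the result was not tested.

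On the replication side, the 10 licensing and helicase genes all had positive differences. Cdc6 read 155.9, 166.7 and 143.6 at P28 and 226.5, 211.1 and 280.9 at 2 months (0.57 ± 0.22, adjusted p = 0.0637). Cdt1 read 154.9, 141.3 and 170.2 and then 227.6, 223.0 and 220.9 (0.49 ± 0.11, adjusted p = 0.00493). Mcm4, a helicase subunit, read 639.0, 491.3 and 601.6 and then 732.3, 865.7 and 781.9 (0.45 ± 0.15, adjusted p = 0.0303). In these 3 genes the 2-month arrays all lay above the P28 arrays, as they did in 11 of 17 replication genes and in 19.6% of all genes. Rrm1, Tyms and Prim1 were the replication genes with negative differences (-0.42, -0.05 and -0.03).

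The next ages moved back and parted again. At 6 months against 2 months all 22 mitosis genes were higher (median 0.51) and 16 of 17 replication genes lower (median -0.37). Ccnb2 and Nusap1 rose (0.215% of all genes rose). Ccnb2 read 1050 and 1022 at 6 months (1.08 ± 0.25, adjusted p = 0.0196), and Nusap1 946.1 and 910.2 against 542.1, 409.8 and 425.9 at 2 months (1.00 ± 0.27, adjusted p = 0.0445). Neither was called without 2 months replicate 2 or 3 or without either 6-month array. Nusap1 alone was lost without any one of E17.5 replicate 3, P3 replicate 1, 2 or 3, P7 replicate 1, P14 replicate 3, P28 replicate 1 or 2 and the arrays of 1 year and 18 months. Without the lens-rich arrays Nusap1 was at 1.15 with an adjusted p of 0.067. With the replicate number as a block only 1 gene was called. All 6-month arrays lay above all 2-month arrays in 17 mitosis genes (24.6% of all genes) and below them in 12 replication genes (22%). Stromal markers summed to 17865 to 23759 at 2 months and 5257 to 8249 at 6 months, without overlap. Retinal markers reached 14624 on 6 months replicate 1, against 1509 to 4942 at 2 months, and replicate 2 of 6 months was rich in lens markers. The part of these tissues in the result was not tested.

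At 18 months against 1 year the signs parted as at 2 months. Replication genes were higher in 16 of 17 (median 0.38) and mitosis genes lower in 19 of 22 (median -0.24; 18 of 22 with quantile normalization). By limma 0 of 39 were called (0.854% of all genes), and 6 had an unadjusted p under 0.05. Cenpf read 767.4 and 778.9 at 1 year and 429.5 and 428.8 at 18 months (-0.83 ± 0.30, adjusted p = 0.229), and Cdc20 535.4 and 562.3 and then 306.8 and 337.4 (-0.74 ± 0.23, adjusted p = 0.13). Mcm6 read 594.1 and 791.9 and then 944.9 and 1072 (0.54 ± 0.28, adjusted p = 0.487). In 12 replication genes both 18-month arrays lay above both 1-year arrays (26.1% of all genes), and in 12 mitosis genes below them (23%). Stromal markers summed to 14339 to 19507 at 1 year and 5637 to 7285 at 18 months, and epithelial markers to 76057 to 81116 and 89600 to 97590, both without overlap. Their part in the result was not tested.

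The difference between both medians on an array, replication minus mitosis on the gene-centred log2 scale, gives the same pattern as 1 value per array. It was 0.36, 0.73 and 0.82 at 2 months, 0.52 and 0.46 at 18 months and 0.16 and 0.58 at 2 years (replicates 1 and 2). On the other 25 arrays it lay between -0.59 and 0.24. The lowest 2-month value belonged to replicate 1, the lens-rich array. The higher values belonged to replicates 2 and 3, whose identifiers 1A and 1B the labels do not explain. Whether these arrays come from separate animals is therefore not known. The mean was 0.64 ± 0.24 (SD, n = 3) at 2 months and 0.49 ± 0.04 (n = 2) at 18 months, against -0.18 ± 0.13 (n = 3) at P28 and -0.17 ± 0.02 (n = 2) at 6 months. At E14.5 and P3 it was -0.37 ± 0.21 and -0.32 ± 0.07 (n = 3 each), a parting in the other direction. Across arrays, pairs of 1 replication and 1 mitosis gene had a median Pearson r of 0.54 over 32 arrays, 0.84 over the 18 arrays to P14 and -0.32 over the 14 later arrays. For the deviations of the 32 arrays from their age means the median r was 0.52, so arrays of one age tended to be high or low in both sets together. These arrays share tissue composition and scale, and the values are a description.

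The labels used here give no hour of collection. Levels of 5 circadian clock genes, picked after values had been seen, are given for that reason. Arntl, the clock activator, averaged 750.5 at P28, 226.3 at 2 months, 840.7 at 6 months, 401 at 1 year, 329.7 at 18 months and 532.3 at 2 years. Ciart, a clock repressor, averaged 151.9, 800.4, 120.8, 330.2, 745 and 323.2 at these ages. Replication minus mitosis averaged -0.18, 0.64, -0.17, -0.04, 0.49 and 0.37 at these ages. Single arrays varied widely. Ciart read 229.5, 746.5 and 1425 at 2 months, where replication minus mitosis was 0.36, 0.73 and 0.82. It read 485.4 and 161 at 2 years, where replication minus mitosis was 0.16 and 0.58, in the opposite order. Dbp, a clock output factor, averaged 710.4 at P28, 1268 at 2 months, 628.9 at 6 months, 1621 at 1 year, 1527 at 18 months and 955.4 at 2 years. Nr1d1, another repressor, averaged 1888, 1802, 1583, 2571, 2151 and 2347 in the same order. Per2, a period gene, averaged 274.8, 394, 296.2, 357.2, 433 and 369.4. No test was made, and the part of the hour of collection in the result was not tested.

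**Figure D4:**
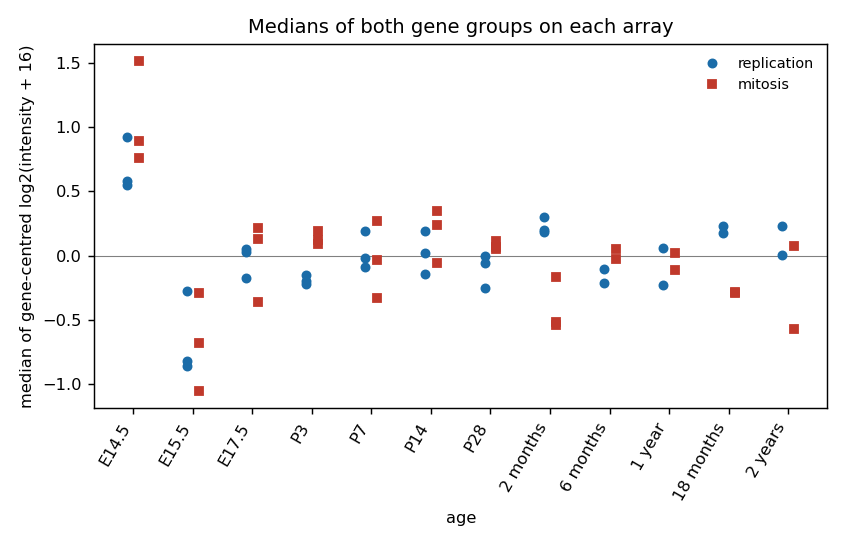
Median of the gene-centred log2(intensity + 16) (vertical axis) of 17 replication genes (blue circles) and 22 mitosis genes (red squares) on each of the 32 arrays, by age (horizontal axis). At 2 months and 18 months all blue points lie above all red ones.

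No gene of the set was called between younger and older adults. The 3 ages from 1 year on, averaged and set against 2 and 6 months, gave 0 calls of 39 by limma (0.677% of all genes called), with 2 genes at an unadjusted p under 0.05. The medians were 0.05 for replication and 0.04 for mitosis. Kif23 had the widest difference, 0.45 ± 0.14 (adjusted p = 0.0754), with 828.0, 580.5 and 661.0 at 2 months, 834.8 and 1082 at 6 months and 1207 and 1229 at 1 year, 1038 and 960.5 at 18 months and 1426 and 870.4 at 2 years. Rrm1, the reductase subunit, stood highest at 18 months, with 1286 and 1125, 112.7% of its E14.5 mean, and at 1217 and 1022 at 2 years. No gene of the set had all arrays of the older ages beyond all arrays of 2 and 6 months, which was so for 0.869% of all genes below and 1.63% above. Steps of 1 year against 6 months (0.208% of all genes called) and 2 years against 18 months (0.446%) called 0 of 39, with 1 gene each at an unadjusted p under 0.05.

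Other genes of the same machinery fell at E15.5 as well. Of 30 other tested replication genes 15 fell and 0 rose (median -0.94; 3.1% of all genes fell and 7.35% rose), led by Gmnn, the inhibitor of Cdt1 (-2.27 ± 0.27, adjusted p = 5.6e-07), Rfc4, of the clamp loader (-1.88 ± 0.22), and Dbf4, the activator of the origin kinase (-1.67 ± 0.30). Of 46 other mitosis genes 40 fell and 0 rose (median -1.46), led by Cenpk, a kinetochore protein (-2.51 ± 0.28, adjusted p = 2.6e-07), Birc5, survivin of the passenger complex (-2.10 ± 0.20), and Ncapg, a condensin subunit (-2.09 ± 0.29). These lists were made with results of these data known. At 2 months against P28 neither list held a called gene (2.12% of all genes were called), with medians of 0.28 for the other replication genes and -0.29 for the other mitosis genes.

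Regulators were called in smaller numbers. Among 17 G1 cyclins, E2F and Myb regulators, 3 fell at E15.5 and 0 rose (3.1% of all genes fell): Ccnd1, cyclin D1 (-1.64 ± 0.39, adjusted p = 0.00194), Lin9, of the MuvB complex (-1.22 ± 0.29), and Foxm1, a transcription factor of mitotic genes (-1.08 ± 0.21). Ccnd1 varied widely at E14.5, from 1072 to 6107 (2864 ± 2814, SD, n = 3). At E15.5 it read 706.4 ± 310.3 (SD, n = 3), with 1041 on the highest array. It rose again at E17.5 (1.70 ± 0.39, adjusted p = 0.0328). Among 15 cell cycle brakes, 2 rose at E15.5, where 7.35% of all genes rose: Ccng1 (1.096 ± 0.155) and Rbl2, a pocket protein (1.003 ± 0.141). Gadd45a, a stress-induced inhibitor, fell (-1.96 ± 0.40). At P28 against P14, Cdkn1c, an inhibitor of cyclin-dependent kinases, fell (-1.81 ± 0.26), as did Ccnd2, cyclin D2 (-1.62 ± 0.26), where 3.5% of all genes fell. Rb1, the retinoblastoma protein (1.47 ± 0.38), and Ccng2, cyclin G2 (1.03 ± 0.24), rose there, where 4.15% of all genes rose, across the split of the unnamed probe sets. At 2 months against P28, Ccng2 fell (-1.28 ± 0.24) and so did Cdk6, a G1 kinase (-1.01 ± 0.20). Cdkn1b, the inhibitor p27, fell at 2 years against 18 months (-2.71 ± 0.50, limma adjusted p = 0.00759), from a mean of 2453 to 363.1 (n = 2 each), where 0.208% of all genes fell. Within the 3 arrays of 2 months alone it ranged from 393.9 to 2260. Cdkn1c fell from 2019 ± 598 at E14.5 to 182.0 ± 51.1 at 2 months (SD, n = 3 each), -3.35 ± 0.26 with an adjusted p of 1.4e-10.

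By the profile of the 12 age means, the genes outside the set most like the median of all 39 were Birc5 (Pearson r = 0.975 over 12 ages), Kif15 (0.961), Nuf2 (0.959) and Ndc80 (0.959). Most like the replication genes were Dscc1 (0.962) and Wdhd1 (0.955), and most like the mitosis genes were Aspm (0.976) and Kif14 (0.973). These are likenesses of 12 means that share the same arrays.

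The separated layers had 1 array each, of different ages, so no test was made and layer, age and method of isolation cannot be told apart. Replication genes were higher in epithelium of P28 than in stroma of P7 in 15 of 17, with a median log2 difference of 0.42, while mitosis genes were higher in 11 of 22 with a median of -0.04, which was 0.02 with quantile normalization and 0.01 with centred arrays. Of all genes 49.5% were higher in epithelium. Pole, counted among the 15, was nearly equal (313.5 and 310.8). The median intensity of the mitosis genes was 411.0 in epithelium and 440.0 in stroma, below the 456.9 and 472.8 of all genes tested. For replication genes it was 586.4 and 428.0, so the stroma value was also below that of all genes. No gene of the set reached a 4-fold difference, as 1.39% of all genes did. Mcm6 had the widest positive difference (871.0 in epithelium and 461.8 in stroma, 0.89), followed by Prim1 (524.8 and 298.6, 0.78), Mcm4 (683.0 and 399.1, 0.75) and Pcna (2896 and 1722, 0.74). Ccnb2 had the widest negative one (579.3 and 864.9, -0.57), followed by Mki67 (722.0 and 1030, -0.50). In whole corneas of these ages, P28 against P7, the medians were -0.16 for replication and 0.06 for mitosis. The stroma array also held epithelial keratins: Krt12 at 2185 (15153 in epithelium), Krt5 at 4078 (9817) and Krt14 at 2673 (2244). The 14 corneal epithelial markers summed to 26007 in stroma and 78609 in epithelium. The lens crystallin Cryaa read 6898 and the muscle actin Acta1 1708 on the stroma array. The epithelium array read 158.2 for the stromal gene Kera, and the part of all these in the values was not tested.

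**Figure D5:**
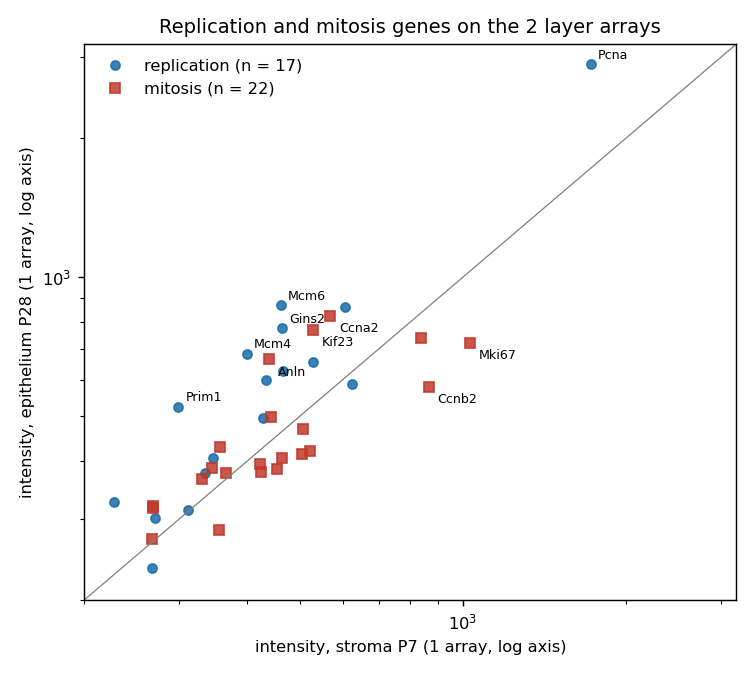
Intensity of 17 replication genes (blue circles) and 22 mitosis genes (red squares) on the stroma array of P7 (horizontal, log axis) and the epithelium array of P28 (vertical, log axis), with the line of equal intensity and names where the log2 difference passes 0.5 either way. Of the replication genes 15 lie above the line, and of the mitosis genes 11.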

How the data were processed

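The deposited table gives linear intensity values, 1 for each probe set on each array. For their software the submitters' processing notes name PLIER and Affymetrix Expression Console 1.1, without the settings the authors used. The genome build and annotation behind the array are not given in the sources used here. RNA was amplified from poly(A) RNA before labelling, per the labels' protocols. The table held 35557 probe sets on 34 arrays with 2 missing values. Gene symbols came from the platform annotation given with the table: 21789 probe sets had 1 symbol, 1621 several and 12147 none. Whole-cornea array medians lay between 188.2 and 240.6. Layer arrays had a higher floor (lowest values 41.8 and 42.6) and entered no fit.

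Of the probe sets with 1 symbol, those above the median of all such probe sets on 2 or more whole-cornea arrays (of 32) were kept (14329), with 1 per gene by highest mean (12998 genes). A linear model with 1 mean per age was fitted to log2(intensity + 16), without further normalization, by lmFit and eBayes (limma 3.58.1, R 4.3.3), leaving 20 residual degrees of freedom beside a prior of 4.1. Tests were two-sided, adjusted by Benjamini-Hochberg within a comparison. The script was tested on simulated data. Ages compared were each with the one before, and those named in the text. The members and lists were chosen with earlier results of these data known. Named genes are members and, from the further lists, some of the up to 3 called genes per direction and comparison that the rule allows, with the first of the genes nearest by profile; clock genes were chosen after seeing values. Promoters and motif searches used RefSeq's GRCm38.p6 table, with matches on both strands counted. Alternatives were other offsets, filters, normalizations, probe set rules, trended robust moderation, array weights, a replicate block, size limits, compared ages alone, single arrays left out, and, chosen after seeing the data, the average of 2 months replicates 2 and 3, whose identifiers 1A and 1B the labels do not explain.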

Additional observations from a re-analysis of the deposited data

How the results depend on the processing

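No called value changed direction. The median layer difference of the mitosis genes, -0.04, turned to 0.02 with quantile normalization and 0.01 with centring. The counts of genes called over the 12 ages (34 to 39 beside 35), at E15.5 against E14.5 (30 to 39 beside 35), over E14.5 to P14 (30 to 39) and at 2 months against E14.5 (18 to 30 beside 21) stayed within 1.5 times under every alternative. With each array left out in turn they were 34 to 37, 31 to 36, 31 to 36 and 16 to 22. The 5 calls of P14 against E15.5 became 9 with an offset of 1, with quantile normalization or with arrays centred on their median, 13 with array weights or without the lens-rich arrays, 28 with no limit on the difference and 2 to 18 with 1 array left out. The 2 calls of 2 months against P28 became 1 with quantile normalization, with centring and with 2 months replicates 2 and 3 averaged, 11 with no limit, and 1 to 3 with 1 array left out. The 2 calls of 6 months against 2 months became 1 with an offset of 64, with centring and with the replicate block, 0 with quantile normalization, with only the ages compared and with the averaged arrays, and 0 to 2 with 1 array left out. Over P28 to 2 years the 2 calls became 1 with quantile normalization and with the averaged arrays, 8 with no limit and 1 to 5 with 1 array left out. P28 against P14 gave 1 call with no limit. The 1 call of E17.5 against E15.5 became 0 with an offset of 64 and with only the ages compared, 2 with centring or without the lens-rich arrays, 3 with quantile normalization, 4 with no limit, 14 with array weights and 0 to 11 with 1 array left out. Replication minus mitosis at 18 months, 0.49, was 0.45 with an offset of 64, 0.43 with quantile normalization and 0.46 to 0.54 with 1 array left out. The median layer difference of the replication genes was 0.61 with quantile normalization. At P28 against P14 the median of all genes shifted by -0.10 with quantile normalization and -0.11 with centring, and without a filter that median moved by up to 0.13 at 2 months against P28. The replicate number as a block changed no other count by over 1.5 times. Arrays of one number did not deviate together: the median correlation was -0.01 over 160 pairs of the same number and 0.01 over 308 other pairs, and 7 of 32 arrays correlated best with their own number. The number of arrays limits all counts, and the cause of these changes was not tested.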
